A study of Homo sapiens with 4 samples.

Results

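The 10 genes HSP90AA1, HSP90AB1, HSPA8, HSPD1, HSPE1, PFDN5, CCT2, CCT3, TCP1 and BTF3 encode chaperones and factors that help new proteins to fold. Skipped exons of these genes were taken from splicing tables of MDA-LM2, a derivative of the human breast cancer line MDA-MB-231 that was selected for metastasis to the lung. An exon was included when its hg38 coordinates and strand matched a GENCODE release 29 exon of a member gene, or when both flanking exons did. All 41 events found were matched through the skipped exon itself, and 0 through the flanks alone. The same 41 events stood in the summary of each group. They made up 36 different exons, of 39120 skipped exons in the tables. HSP90AB1 had no event, so 9 of the 10 genes are described. The genes were chosen with their differences in Ψ in these tables already known. The Ψ values are therefore a description, and no test is made on them.

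Lipofection was used to bring into the MDA-LM2 cells either the SSE mimetic, an RNA, or an oligo with a scrambled sequence. The groups are named SSE mimetic cells and scrambled-oligo cells. Each group had 2 samples, 4 in all, and both groups went through the same transfection and were from the same line. Whether the samples within a group were separate cultures is not stated by the labels. The tables hold 1 value per group, so no spread between replicates and no value per sample can be given. Samples without transfection were not analysed here.

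Chaperones bind unfolded or newly made polypeptides and keep them from aggregating until they reach their folded state. The HSP70 proteins bind short hydrophobic stretches as chains leave the ribosome, and pass some clients on to HSP90, which matures kinases and steroid receptors among others. Prefoldin delivers actin and tubulin to the ring-shaped chaperonin TRiC, also called CCT, while the mitochondrial chaperonin of HSPD1 and HSPE1 folds proteins imported into mitochondria. BTF3 is a subunit of the nascent polypeptide-associated complex, which sits at the ribosomal exit. Many of these genes are expressed at high levels and are known for processed pseudogenes, copies made by reverse transcription that carry the exons joined and without introns.

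The tables give Ψ, the fraction of transcripts that include the exon, as estimated by the authors with a 95% credible interval. They also count inclusion reads, which fit the form with the exon and no other, skipping reads, which fit the form without it and no other, shared reads, which lie in the flanking exons and fit both, and reads that fit neither. Ψ is inferred from the first 3 classes together, so it can move with the balance of inclusion and shared reads when there is no skipping read. A read inside the exon counts for inclusion whichever form of a nested exon it came from. Exons with at least 10 inclusion plus skipping reads in both groups are referred to as tested. A call required a Bayes factor of 10 or more in the authors' deposited table and a difference in Ψ of 0.1 or more.

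The read numbers behind the values were uneven. Over all 45977 events, inclusion plus skipping reads came to 431105 in SSE mimetic cells and 2039336 in scrambled-oligo cells, which is 21.1 per 100 scrambled reads. Shared reads stood at 27.2 per 100 and reads matching neither isoform at 65.1 per 100. All classes together stood at 60.6 per 100, with a read counted in each event that it falls in. Over all events, reads matching neither isoform were 95.3% of reads in SSE mimetic cells and 88.8% in scrambled-oligo cells. Over the 41 member events, reads matching neither isoform were 65.8% of reads in SSE mimetic cells and 54.4% in scrambled-oligo cells. Calls with the scrambled reads scaled down to the SSE mimetic number are given below, while the part of the reads matching neither isoform was not tested apart from a subtraction of intron read density. A tested member exon had a median of 50 inclusion plus skipping reads in SSE mimetic cells (10 to 1035) and 337 in scrambled-oligo cells (70 to 8669). The median width of the credible interval was 0.23 and 0.05 in the same order. Of epithelial and metastasis-related markers, KRT8 and CD44 had 138 and 489 inclusion reads in SSE mimetic cells, and 520 and 3855 in scrambled-oligo cells. The leukocyte marker PTPRC had 19 and 26 inclusion reads and the hepatocyte marker ALB 15 and 21, in the same order, and VIM, KRT18 and PECAM1 had no event.

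The exons called lower are coding exons with close copies elsewhere in the genome, so the sequences of the HSP90AA1 and HSPA8 exons are shown with those copies. All are GENCODE release 29 sequences on hg38, written 5′ to 3′ on the strand of the gene, and a capital marks a base of the copy that differs from the exon. The HSP90AA1 exon of 160 nt lies at chr14:102085965-102086124 on the minus strand. Its copies in HSP90AA2P on chromosome 11 and HSP90AA4P on chromosome 4 differ at 3 and 8 bases.
HSP90AA1 exon: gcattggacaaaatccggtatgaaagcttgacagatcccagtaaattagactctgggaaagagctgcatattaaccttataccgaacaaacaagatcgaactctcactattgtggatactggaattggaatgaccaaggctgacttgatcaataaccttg
HSP90AA2P: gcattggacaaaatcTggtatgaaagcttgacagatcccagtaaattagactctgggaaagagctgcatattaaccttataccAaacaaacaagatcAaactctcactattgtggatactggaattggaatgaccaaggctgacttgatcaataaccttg
HSP90AA4P: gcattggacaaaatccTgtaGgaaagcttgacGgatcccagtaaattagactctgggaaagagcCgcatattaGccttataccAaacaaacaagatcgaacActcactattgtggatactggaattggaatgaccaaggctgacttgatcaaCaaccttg

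The HSPA8 exon of 83 nt lies at chr11:123060593-123060675 on the minus strand. Its copies in HSPA8P1 and HSPA8P7, both on chromosome X, and in HSPA8P8 on chromosome 7 differ at 2, 3 and 3 bases.
HSPA8 exon: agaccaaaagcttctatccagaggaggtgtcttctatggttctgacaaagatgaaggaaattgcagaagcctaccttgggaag
HSPA8P1: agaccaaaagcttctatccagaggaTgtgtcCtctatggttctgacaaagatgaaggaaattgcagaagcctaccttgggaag
HSPA8P7: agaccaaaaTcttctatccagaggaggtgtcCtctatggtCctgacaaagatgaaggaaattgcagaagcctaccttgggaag
HSPA8P8: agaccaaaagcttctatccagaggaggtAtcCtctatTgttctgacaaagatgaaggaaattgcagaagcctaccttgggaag

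Of the 36 member exons, 25 passed the read minimum and 11 did not. Among the 25, 2 were called higher in SSE mimetic cells (PFDN5 and CCT3), 3 were called lower (BTF3, HSP90AA1 and HSPA8) and 20 were not called. Over all 8228 tested exons, 3.99% were called, 3.1% higher and 0.887% lower. Since the genes were chosen on this comparison, nothing is read from the members' count beside those shares. The median difference in Ψ was -0.04 over the tested member exons and -0.03 over all tested exons. It was below 0 for 21 of the 25 and above 0 for 4. Over all 8228 tested exons, the difference was below 0 for 5200 and above 0 for 2749.

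Most of the tested member exons had a Ψ near 1 in scrambled-oligo cells, and fewer did in SSE mimetic cells. Of the 36, 23 are coding in at least 1 protein-coding transcript, 5 lie in untranslated regions and 8 occur in transcripts annotated as retained-intron or nonsense-mediated decay forms. Their lengths run from 32 to 1495 nt with a median of 117.5 nt, and 13 have a length that is a multiple of 3. The median Ψ of the tested exons was 0.86 in SSE mimetic cells and 0.99 in scrambled-oligo cells. Ψ was at least 0.9 in 11 of the 25 in SSE mimetic cells and in 18 in scrambled-oligo cells. No skipping read was seen in either group for 17 of the 25 (68%), beside 54.8% of all tested exons. A Ψ estimated without skipping reads lies further below 1 when reads are fewer, and SSE mimetic reads were fewer. The part of read number in these medians and counts was not tested. Overlap was common, since 18 of the 36 exons share bases with another member exon, and such forms share reads.

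**Figure D1:**
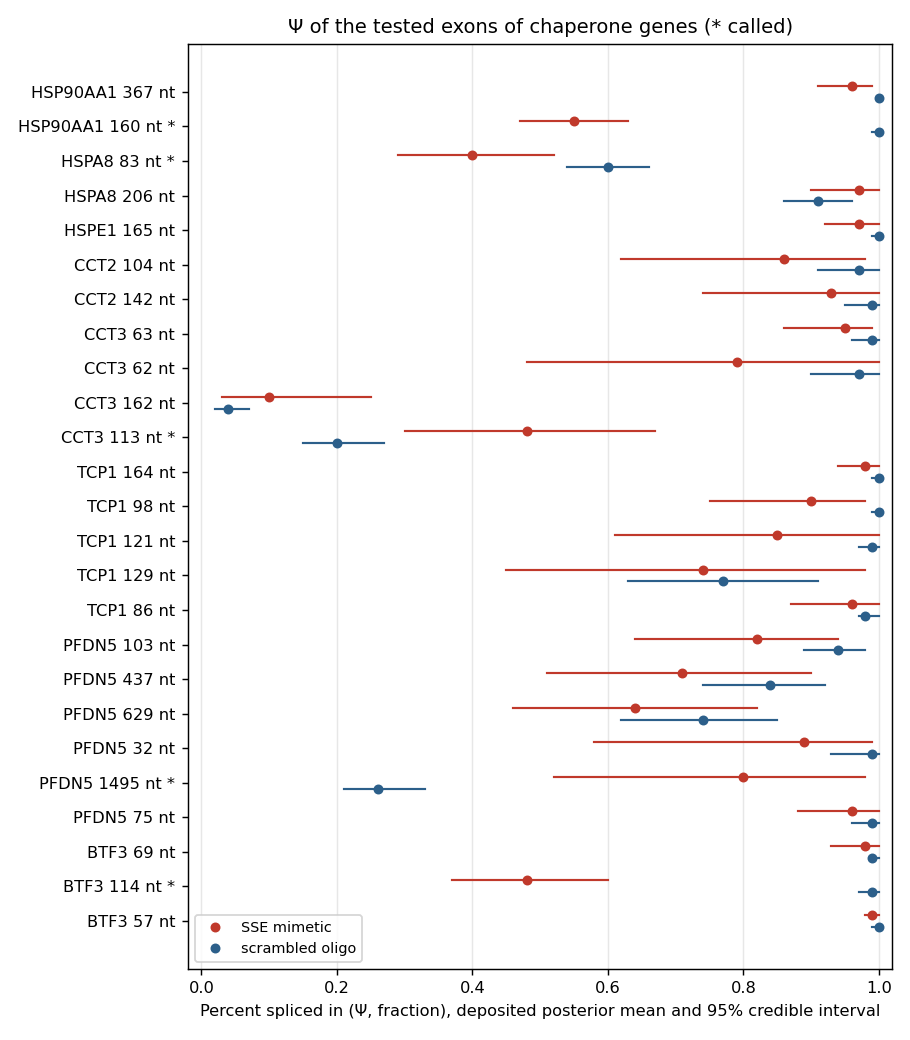
Deposited Ψ (x axis, a fraction from 0 to 1) of the 25 tested member exons, 1 row per exon, in SSE mimetic cells (red, upper) and the scrambled oligo (blue, lower). Points are posterior means and lines 95% credible intervals of 1 pooled read set per group, and an asterisk marks the 5 called exons. The scrambled points of 18 exons lie at 0.9 or above, while the BTF3 exon of 114 nt and the HSP90AA1 exon of 160 nt are at 0.48 and 0.55 in SSE mimetic cells.

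HSP90AA1 encodes the stress-inducible form of cytosolic HSP90. Its coding exon of 160 nt was at Ψ 0.55 (0.47 to 0.63) in SSE mimetic cells and 1.00 (0.99 to 1.00) in scrambled-oligo cells. In the authors' deposited table the difference was -0.45 with a Bayes factor at its cap, 1e12. There were 238 inclusion and 604 shared reads in SSE mimetic cells, and 3433 inclusion and 3735 shared reads in scrambled-oligo cells. Skipping reads numbered 0 in both groups, which allows a skipping share of isoform-specific reads of up to 1.26% in SSE mimetic cells and 0.0874% in scrambled-oligo cells. This is a share of reads and not of transcripts. A read of 76 nt can start at 235 positions for inclusion and 75 for skipping, so the limit on skipped transcripts is wider. The same holds for such limits given below. What differed was the number of inclusion reads per shared read, at 0.394 in SSE mimetic cells and 0.919 in scrambled-oligo cells.

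This exon is nested in a longer form of 367 nt, chr14:102085758-102086124, that begins at the same 3′ splice site and ends at a 5′ splice site further downstream. The longer form is coding in 2 transcripts and the shorter in 1. The longer form was at Ψ 0.96 (0.91 to 0.99) in SSE mimetic cells and 1.00 (1.00 to 1.00) in scrambled-oligo cells, and was not called, with a Bayes factor of 0.27 in the authors' deposited table. It had 1035 inclusion reads in SSE mimetic cells and 8669 in scrambled-oligo cells. Less the inclusion reads of the shorter form, that is 797 and 5236 reads, or 15.2 SSE mimetic reads per 100 scrambled reads. Inclusion reads of the shorter form stood at 6.93 per 100 and the shared reads of the flanking exons at 16.2 per 100. If each read of the shorter form also fits the longer one, the lower ratio lay in the upstream part of the longer exon. Its downstream part then had a ratio close to that of the flanks. Reads across the junction of the shorter form alone break this condition, and they were not counted apart. For the TCP1 exons of 98 and 121 nt, the same subtraction gave -6 reads in SSE mimetic cells and -122 in scrambled-oligo cells.

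The remaining HSP90AA1 exon, of 211 nt (chr14:102101875-102102085), is coding in 1 transcript. It had 7 inclusion reads in SSE mimetic cells and 5 in scrambled-oligo cells, beside 260 and 1793 shared reads, and so fell below the read minimum. Its Ψ was 0.08 (0.04 to 0.14) in SSE mimetic cells and 0.01 (0.00 to 0.02) in scrambled-oligo cells. The authors' deposited table gives it a difference of 0.07, under the size set for a call, with a Bayes factor of 21.38.

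HSPA8 encodes HSC70, the constitutive cytosolic HSP70 that also strips clathrin from vesicles. Its exon of 83 nt was at Ψ 0.40 (0.29 to 0.52) in SSE mimetic cells and 0.60 (0.54 to 0.66) in scrambled-oligo cells. In the authors' deposited table the difference was -0.2 and the Bayes factor 14.05, the lowest Bayes factor among the called member exons. Inclusion reads numbered 50 and shared reads 446 in SSE mimetic cells, and 455 and 2663 in scrambled-oligo cells. No skipping read was seen in either group. This allows a skipping share of isoform-specific reads of up to 6% in SSE mimetic cells and 0.659% in scrambled-oligo cells. The call was not made when Ψ and the Bayes factor were recomputed with a 2-isoform model, where the difference was -0.196 and the Bayes factor 8.05.

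The exon of 83 nt is the downstream end of a 206-nt exon, chr11:123060593-123060798, which 11 coding transcripts hold whereas 1 holds the short form. The 206-nt form was at Ψ 0.97 (0.90 to 1.00) in SSE mimetic cells and 0.91 (0.86 to 0.96) in scrambled-oligo cells. It was not called, and its Bayes factor was 0.36 in the authors' deposited table. Its inclusion reads less those of the short form were 319 in SSE mimetic cells and 1289 in scrambled-oligo cells, or 24.7 per 100. The short form stood at 10.99 per 100 and the shared reads at 16.7 per 100. If each read of the short form also fits the 206-nt form, the lower ratio lay in the downstream part of the exon and the higher one in the upstream part. That condition was not tested.

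HSPE1 encodes the cochaperonin that caps the ring formed by the HSPD1 product, and the pair of genes lie head to head on chromosome 2. The coding HSPE1 exon of 165 nt (chr2:197501074-197501238), which the readthrough gene HSPE1-MOB4 also carries, was at Ψ 0.97 (0.92 to 1.00) in SSE mimetic cells and 1.00 (0.99 to 1.00) in scrambled-oligo cells. There were 188 inclusion and 0 skipping reads in SSE mimetic cells, and 1894 and 1 in scrambled-oligo cells, and was not called. HSPD1 also overlaps it on the opposite strand, and the sources used do not state whether counting used the strand.

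HSPD1 encodes the mitochondrial chaperonin itself. Its events were 3 nested exons of 180, 272 and 297 nt in the untranslated region, rarely included in either group. The longest was at Ψ 0.09 (0.02 to 0.23) in SSE mimetic cells and 0.02 (0.01 to 0.03) in scrambled-oligo cells. Inclusion reads were 3 and skipping reads 1 in SSE mimetic cells, and 6 and 65 in scrambled-oligo cells. The SSE mimetic reads fell short of the minimum for all 3, so none was tested.

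CCT2, CCT3 and TCP1 encode subunits of TRiC, in which different but related proteins form each of the stacked rings. In CCT2, 2 coding exons were tested and neither was called. The better covered one, of 142 nt (chr12:69599863-69600004), was at Ψ 0.93 (0.74 to 1.00) in SSE mimetic cells and 0.99 (0.95 to 1.00) in scrambled-oligo cells, with 37 and 188 inclusion reads and no skipping read. Its neighbour of 104 nt was at 0.86 (0.62 to 0.98) in SSE mimetic cells and 0.97 (0.91 to 1.00) in scrambled-oligo cells.

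In TCP1, 5 of 6 exons were tested and 0 were called, with differences from -0.14 to -0.02 among those tested. The best covered, a coding exon of 164 nt (chr6:159779627-159779790), was at Ψ 0.98 (0.94 to 1.00) in SSE mimetic cells and 1.00 (0.99 to 1.00) in scrambled-oligo cells. The coding exon of 98 nt (chr6:159785900-159785997) was at 0.90 (0.75 to 0.98) in SSE mimetic cells and 1.00 (0.99 to 1.00) in scrambled-oligo cells. Its intervals do not meet, yet the Bayes factor was 0.82 in the authors' deposited table, the highest among the tested member exons that were not called. It had 27 inclusion reads in SSE mimetic cells and 488 in scrambled-oligo cells, or 5.53 per 100, the lowest inclusion ratio of the 25 tested exons, while its shared reads stood at 17.9 per 100.

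CCT3 had 1 call, higher in SSE mimetic cells. The exon of 113 nt (chr1:156337677-156337789) lies in the untranslated region of 1 transcript, and the gene TSACC overlaps it on the opposite strand. It was at Ψ 0.48 (0.30 to 0.67) in SSE mimetic cells and 0.20 (0.15 to 0.27) in scrambled-oligo cells. In the authors' deposited table the difference was 0.28 and the Bayes factor 16.46. This is the called member exon with skipping reads. Inclusion reads numbered 17 and skipping reads 8 in SSE mimetic cells, and 42 and 72 in scrambled-oligo cells. The inclusion share of these reads was 0.68 (exact 95% binomial interval 0.465 to 0.851) in SSE mimetic cells and 0.368 (0.280 to 0.464) in scrambled-oligo cells. It was not corrected for the number of positions at which a read can start, so it is not on the scale of Ψ. As the genes were chosen on this comparison, nothing is read from the narrow gap between the 2 intervals. These binomial intervals, like the limits set by a count of 0, cover counting error only, since the reads carry no molecular identifiers and need not be independent molecules.

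A neighbouring CCT3 exon of 162 nt (chr1:156337079-156337240), from a nonsense-mediated decay transcript, shares both flanks and the same skipping reads. Its Ψ was 0.10 (0.03 to 0.25) in SSE mimetic cells and 0.04 (0.02 to 0.07) in scrambled-oligo cells, and it was not called. The coding exon of 63 nt, the best covered of the gene, was at 0.95 (0.86 to 0.99) in SSE mimetic cells and 0.99 (0.96 to 1.00) in scrambled-oligo cells. Among exons below the read minimum, a coding exon of 51 nt differed most, at 0.57 (0.24 to 0.98) in SSE mimetic cells and 0.92 (0.74 to 0.99) in scrambled-oligo cells, on 3 and 30 inclusion reads.

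PFDN5 encodes a prefoldin subunit, and had 12 events and 9 exons, the most of any member. The 1 called exon spans 1495 nt (chr12:53296430-53297924) and is annotated in 1 retained-intron transcript. Its Ψ was 0.80 (0.52 to 0.98) in SSE mimetic cells and 0.26 (0.21 to 0.33) in scrambled-oligo cells. In the authors' deposited table the difference was 0.54 and the Bayes factor 1.99e+06. It had 118 inclusion and 10 shared reads in SSE mimetic cells, and 301 inclusion reads in scrambled-oligo cells, with no skipping read in either group. Shared reads stood at 9.90 SSE mimetic reads per 100 scrambled reads and inclusion reads at 39.2 per 100. Inclusion reads per shared read were 11.8 in SSE mimetic cells and 2.98 in scrambled-oligo cells.

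The last 75 nt of this long exon are a coding exon in their own right (chr12:53297850-53297924). That exon was at 0.96 (0.88 to 1.00) in SSE mimetic cells and 0.99 (0.96 to 1.00) in scrambled-oligo cells, with 57 and 189 inclusion reads. Without these, the long form had 61 inclusion reads in SSE mimetic cells and 112 in scrambled-oligo cells, or 54.5 per 100, against 30.2 per 100 for the 75-nt exon. This subtraction takes each read of the 75-nt exon as also fitting the long form, which was not tested. Reads matching neither form at this event numbered 182 in SSE mimetic cells and 891 in scrambled-oligo cells, or 20.4 per 100, and their part in the call was not tested. When the intron read density, taken from the reads matching neither isoform, was subtracted, no inclusion or shared read was left for this exon in the SSE mimetic group and no inclusion read in the scrambled group. The flanking introns of this event hold other annotated PFDN5 exons, so that density includes exonic reads.

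Another 5 PFDN5 exons were tested and not called. The coding exon of 103 nt (chr12:53295839-53295941) was at Ψ 0.82 (0.64 to 0.94) in SSE mimetic cells and 0.94 (0.89 to 0.98) in scrambled-oligo cells. Its reads were 34 inclusion and 3 skipping in SSE mimetic cells, and 263 and 6 in scrambled oligo cells. The 2 retained-intron forms that extend it, of 437 and 629 nt, were at 0.71 and 0.64 in SSE mimetic cells and at 0.84 and 0.74 in scrambled-oligo cells. These 3 forms share reads, so they are not separate observations.

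Among the tested member exons, the largest difference below 0 was in BTF3, in its coding exon of 114 nt, whose length is a multiple of 3. Ψ was 0.48 (0.37 to 0.60) in SSE mimetic cells and 0.99 (0.97 to 1.00) in scrambled-oligo cells. In the authors' deposited table the difference was -0.51 with a Bayes factor at its cap, 1e12. There were 90 inclusion and 333 shared reads in SSE mimetic cells, and 1405 inclusion and 2080 shared reads in scrambled-oligo cells. No skipping read was seen in either group, which allows a skipping share of isoform-specific reads of up to 3.33% in SSE mimetic cells and 0.214% in scrambled-oligo cells.

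The exon upstream of it is 69 nt long, shorter than the 76-nt read length that best matched the deposited Ψ, so shared reads of that length could lie in the downstream exon of 202 nt alone. Inclusion reads per shared read, which here compare the exon with its downstream neighbour, were 0.270 in SSE mimetic cells and 0.675 in scrambled-oligo cells. The 69-nt exon (chr5:73499134-73499202), tested as an event of its own, was at 0.98 (0.93 to 1.00) in SSE mimetic cells and 0.99 (0.99 to 1.00) in scrambled-oligo cells. A downstream exon of 57 nt (chr5:73504347-73504403) was at 0.99 (0.98 to 1.00) in SSE mimetic cells and 1.00 (0.99 to 1.00) in scrambled-oligo cells. From the 5′ side to the 3′ side of the gene, inclusion reads of the 69-, 114- and 57-nt exons stood at 9.93, 6.41 and 20.1 SSE mimetic reads per 100 scrambled reads. The ratio was thus lower at both of the upstream exons than at the downstream one, and the Ψ of the 69-nt exon was taken against flanks whose shared reads were also low, at 7.002 per 100.

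Across the 25 tested exons, the median inclusion ratio was 15.2 SSE mimetic reads per 100 scrambled reads (5.53 to 40.5), and the median shared ratio was 15.5. The medians over all tested exons were 28.8 and 25.2. Inclusion stood below shared in 13 of the 25 exons, the 3 called lower among them, and above it in 12, the 2 called higher among them. Where an exon has no skipping read, Ψ rests on the balance of these 2 read classes. The side of the called exons without skipping reads therefore follows from their calls and says nothing further. The exons on each side were not counted over all tested exons. The ratios of the members called lower lay between 6.41 and 10.99 per 100 for inclusion reads and between 16.0 and 16.7 for shared reads.

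**Figure D2:**
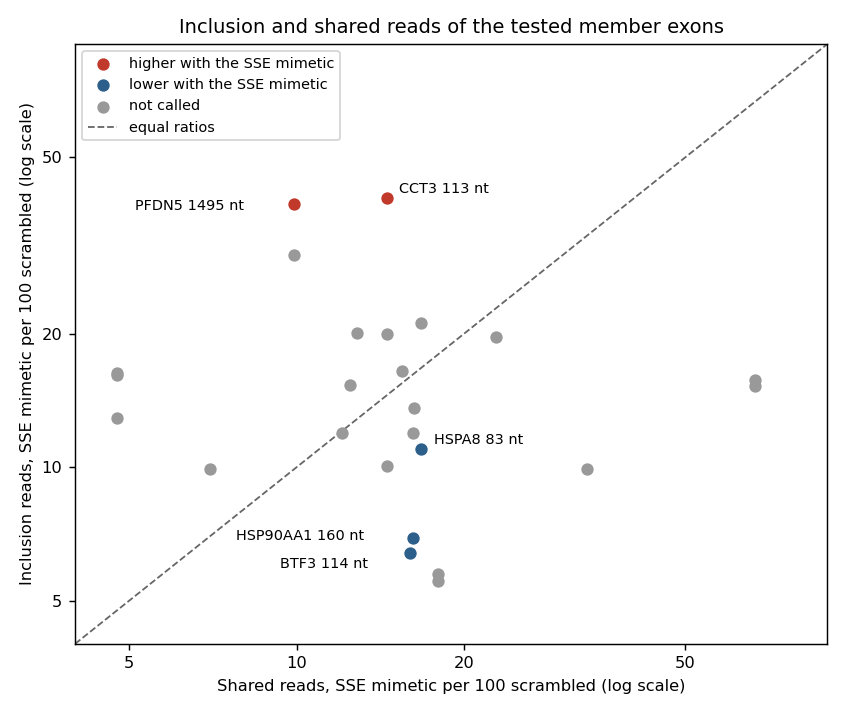
SSE mimetic reads per 100 scrambled reads for inclusion reads (y axis) against shared reads (x axis), both on log scales, for the 25 tested member exons. Each point is an exon, red where called higher, blue where called lower, grey where not called, and the dashed line marks equal ratios. The exons of BTF3, HSP90AA1 and HSPA8 sit below the line at 6.41, 6.93 and 10.99 for inclusion, and those of PFDN5 and CCT3 above it at 39.2 and 40.5.

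Processed pseudogenes can hold the same sequence as the spliced transcript, and the treatment of reads with several matching places was not stated in the sources used. The exons and their flanks were therefore cut into every 76-nt window, and each window was looked up exactly in the GENCODE transcripts of other loci. Windows could be built for 33 of the 36 exons, 22 of them tested. The exons without windows were those of 62, 113 and 162 nt in CCT3. The called CCT3 exon of 113 nt is thus absent from the window counts. For the BTF3 exon of 114 nt, 26 of 183 inclusion windows (14.2%) also occurred in BTF3P10 or BTF3P5, and none of its 127 shared windows did. For the HSP90AA1 exon of 160 nt these shares were 6.38% of inclusion windows (15 of 235) and 20.5% of shared windows (30 of 146), all in HSP90AA2P. For the HSPA8 exon of 83 nt they were 8.86% (14 of 158) and 0.47% (1 of 213). The 1495-nt PFDN5 exon had none of 1570.

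Copies with differences were more numerous. A pseudogene transcript matched at least 90% of the exon's length at 90% identity or more in 8 genes for the BTF3 exon, 3 for the HSP90AA1 exon and 8 for the HSPA8 exon. The HSPE1 exon of 165 nt had 5 such copies, the best in HSPE1P2 at 97.6% identity, and 20.4% of its inclusion windows and 86.7% of its shared windows (13 of 15) occurred elsewhere. For the TCP1 exon of 98 nt this held for none of the inclusion windows and 22.2% of the shared windows. No CCT2 exon had a match in a pseudogene transcript. Of the 22 tested exons with windows, 7 had at least 1 inclusion window elsewhere, and of these 3 were called lower and 0 higher. Of the 15 without, 0 were called lower and 1 higher. With 50-nt windows the split was 13 exons with a window elsewhere, 3 called lower and 1 higher, and 9 without, of which 0 were called, so the PFDN5 exon of 1495 nt changed sides. Over all tested exons, with or without copies, 0.887% were called lower and 3.1% higher. The 7 had a median of 1744 inclusion reads in scrambled-oligo cells and the 15 a median of 301. Both nested forms of HSP90AA1 and both of HSPA8 are among the 7, and such forms share windows and reads. The genes were chosen on these differences, so nothing is read from the calls on either side of the split. The part of pseudogene reads in the differences was not tested.

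**Figure D3:**
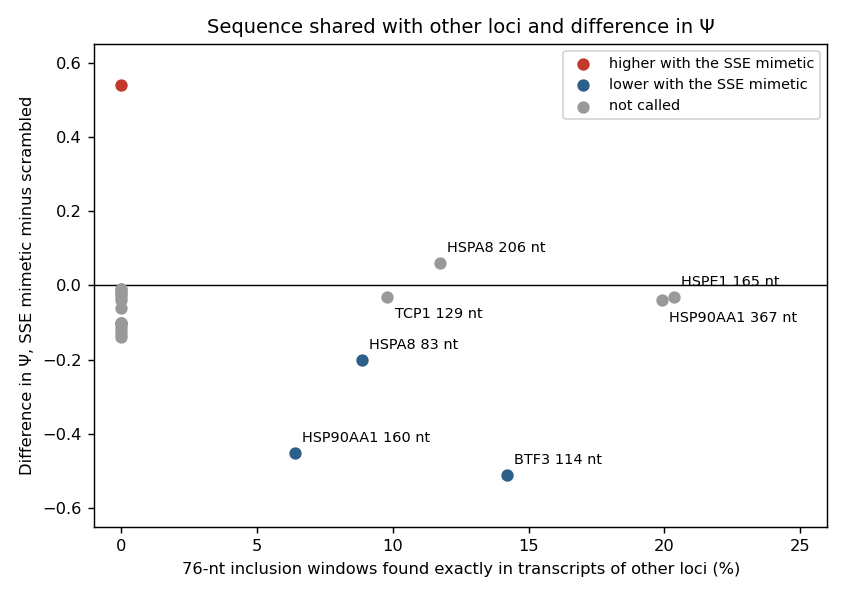
Difference in Ψ, SSE mimetic minus scrambled oligo (y axis), against the percentage of 76-nt inclusion windows found exactly in transcripts of other loci (x axis), for the 22 tested member exons with windows. Each point is an exon, red where called higher, blue where called lower, grey where not called. The exons called lower are at 6.38%, 8.86% and 14.2%, and the HSPE1 and longer HSP90AA1 exons lie near 20% with differences of -0.03 and -0.04. The called CCT3 exon of 113 nt had no windows and is not shown.

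How the 5 called exons behaved depended on the reading of the data. On the inclusion share of isoform-specific reads, corrected for the number of positions at which a read can start, CCT3 remained called (0.27) and the other 4 had a difference of 0, having no skipping read in either group. Only the difference was replaced there, and the deposited Bayes factor was kept. With a 2-isoform model on the deposited reads, the differences were -0.52 for BTF3, -0.45 for HSP90AA1, 0.30 for CCT3 and 0.56 for PFDN5, each called. After subtraction of the intron read density, BTF3 was at -0.53, HSP90AA1 at -0.75 and CCT3 at 0.33, each called, and PFDN5 had no value. The introns of the HSP90AA1 event hold the rest of its 367-nt form, so the density subtracted there includes exonic reads. The subtraction lowered its inclusion reads from 238 to 49.6 in SSE mimetic cells and from 3433 to 1993 in scrambled-oligo cells. The introns of the CCT3 event likewise hold its exon of 162 nt. With the scrambled reads of every exon scaled to 21.2% of their number, BTF3 (-0.50), HSP90AA1 (-0.44) and PFDN5 (0.54) were called. CCT3 (0.28, Bayes factor 5.08) was not. The factor came from totals over all tested exons, so read numbers were not made equal at each exon. BTF3 and HSP90AA1 stood at 6.41 and 6.93 SSE mimetic reads per 100 scrambled reads for inclusion, and at 16.0 and 16.2 for shared reads. Their scaled scrambled reads thus remained the more numerous.

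**Figure D4:**
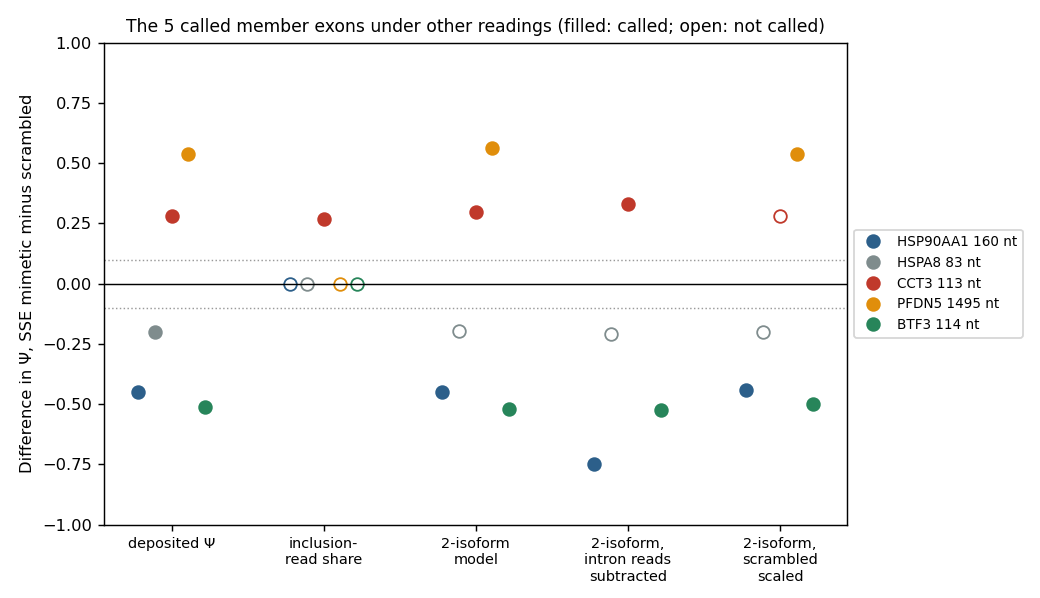
Difference in Ψ, SSE mimetic minus scrambled oligo (y axis), of the 5 called member exons under 5 readings (x axis): the deposited Ψ, the inclusion-read share, and a 2-isoform model on the reads as deposited, after intron-read subtraction and with scaled scrambled reads. Filled points were called and open ones not, and dotted lines mark a difference of 0.1 in size. HSPA8 is open in each reading but the deposited one, and PFDN5 has no point after subtraction.

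To place these genes, 120 further folding genes in 10 families were counted by the same criteria. They had 226 exons, of which 98 in 51 genes were tested, 9 were called higher, 2 lower and 87 not called. The background is again 3.1% higher and 0.887% lower over all tested exons. Their median difference was -0.02. The other TRiC subunits had 7 tested exons, the other prefoldins 3 and the HSP90 paralogues and cochaperones 11, with 0 called in each. The HSP70 exchange factors and adaptors had 7 tested and 0 called, and the small heat shock proteins and heat shock factors had 0 tested.

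Other HSP70 and HSP110 genes had 14 tested exons and 1 call, in HSPA9, the mitochondrial HSP70. Its coding-transcript exon of 74 nt (chr5:138567649-138567722) was at 0.25 (0.15 to 0.37) in SSE mimetic cells and 0.69 (0.58 to 0.79) in scrambled-oligo cells, on 18 and 223 inclusion reads with no skipping read. J-domain proteins, which stimulate the HSP70 ATPase, had 2 of 23 exons called higher and 1 lower. DNAJA3 was at 0.87 (0.63 to 0.99) in SSE mimetic cells and 0.40 (0.24 to 0.59) in scrambled-oligo cells. DNAJC24 was at 0.37 (0.19 to 0.60) in SSE mimetic cells and 0.08 (0.05 to 0.14) in scrambled-oligo cells, and DNAJC7 at 0.67 (0.49 to 0.85) and 0.97 (0.89 to 1.00) in the same order.

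The nascent chain genes that pair with or resemble BTF3 had 2 of 5 exons called higher. NACA, the partner subunit of BTF3, had a 336-nt coding-transcript exon at 0.72 (0.39 to 0.96) in SSE mimetic cells and 0.14 (0.07 to 0.24) in scrambled-oligo cells. Inclusion reads numbered 13 and shared reads 2 in SSE mimetic cells, and 16 and 27 in scrambled-oligo cells, with no skipping read in either group. BTF3L4, a paralogue of BTF3, had a nonsense-mediated decay exon of 232 nt at 0.34 (0.16 to 0.61) in SSE mimetic cells and 0.02 (0.01 to 0.05) in scrambled-oligo cells. Its reads were 10 inclusion and 4 skipping in SSE mimetic cells, and 4 and 49 in scrambled oligo cells.

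Genes of folding in the endoplasmic reticulum had 2 of 19 exons called higher, both in CANX, which encodes the lectin chaperone calnexin. They were at 0.16 (0.09 to 0.26) and 0.18 (0.11 to 0.25) in SSE mimetic cells, and at 0.03 (0.02 to 0.04) and 0.03 (0.02 to 0.05) in scrambled-oligo cells. Both were counted against the same 10 skipping reads in SSE mimetic cells and 102 in scrambled-oligo cells. Tubulin folding cofactors had 3 of 9 exons called higher, all in TBCE and 2 of them forms of 1 exon that have the same reads. Their Ψ ran from 0.69 to 0.86 in SSE mimetic cells and from 0.12 to 0.42 in scrambled-oligo cells.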

How the data were processed

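RNA sequencing of 4 MDA-LM2 samples was used, 2 per group. The labels' protocols name total RNA and ScriptSeq v2 libraries. The submitters' processing notes name STAR 2.7 and hg38. Per the file headers, the deposited tables are MISO skipped-exon summaries, 1 per group, and their comparison. The deposited Ψ is a fraction, the deposited Bayes factor a ratio capped at 1e12, and the deposited difference a score, Ψ with the SSE mimetic minus Ψ with the scrambled oligo. Read classes were deposited as text. How samples were pooled, and which MISO version was used, was not given in the sources used.

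Member genes, lists and criteria were chosen with earlier results of these data known. Among events with the same skipped exon, the one with the most isoform-specific reads was kept. Named exons were all called ones, the best covered one per gene, and any with a Bayes factor of at least 10 and a difference of at least 0.2 below the read minimum, of which there was none. The others named, for their place beside these or for low read numbers, were chosen after their values were seen. Of the wider lists each called exon was named. Alternatives changed thresholds, the read minimum or the Ψ estimate. Calls on the inclusion share kept the deposited Bayes factor. A 2-isoform likelihood with a read length of 76 nt, the closest of 7 tried to the deposited Ψ (Pearson correlation across exons 0.997 and 0.999), was tested on simulated data. Scaled scrambled reads were 21.2% of the deposited number at every exon, a factor taken from totals over all tested exons. The sequence of the called BTF3 exon is not reported here. Windows were searched in GENCODE release 29 transcripts, as no genome was used, and pseudogene copies with blastn 2.17.0. Computation used Python 3.11.15, numpy 2.4.6 and pandas 2.3.3.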

Additional observations from a re-analysis of the deposited data

How the results depend on the processing

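No paired analysis was possible because each group's samples were pooled in 1 table, and no sample could be left out for the same reason. Of the member exons, 2 were called higher and 3 lower. The higher count was 1 with a Bayes factor of at least 100, on the inclusion share, after intron subtraction and with scaled scrambled reads. The lower count was 0 on the inclusion share, 2 with a Bayes factor of at least 100 and under each of the 3 forms of the 2-isoform model, where the HSPA8 exon was not called, and 4 with credible intervals apart. The exon added there was the TCP1 exon of 98 nt. Of all 8228 tested exons, 255 were higher and 73 lower, against 126 and 38 with a Bayes factor of at least 100, and 109 and 31 with scaled scrambled reads. Changing the read minimum also changed the number of exons counted. With at least 20 reads, 139 of 3919 exons (3.55%) were higher and 45 (1.15%) lower. With no read minimum, 430 of 39120 (1.10%) were higher and 214 (0.547%) lower. The main shares were 3.1% and 0.887%. On the inclusion share, 199 of the 8228 tested exons were higher and 10 lower. The wider folding lists had 11 calls among 98 exons, against 6 with a Bayes factor of at least 100, 5 on the inclusion share, 6 after subtraction and 5 with scaled reads. With at least 20 reads they had 4 calls among 60 exons. With 50-nt windows, the share found elsewhere was 35.0% for the BTF3 exon, 23.0% for HSP90AA1, 35.6% for HSPA8 and 0.65% for PFDN5. The causes of these changes were not tested. SSE mimetic depth limits the precision, and 11 member exons had under 10 isoform-specific reads there.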
